A study of Homo sapiens with 6 samples.

Results

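The nuclear genes for subunits of the respiratory chain and of ATP synthase were examined in 6 CUT&Tag peak lists from the triple-negative breast cancer line MDA-MB-231. They were taken by symbol from protein-coding genes on chromosomes 1 to 22: genes beginning NDUFA, NDUFB, NDUFC, NDUFS or NDUFV (complex I, the NDUFAF assembly factors left out), UQCR (complex III), COX4 to COX8 followed by a letter (complex IV), and ATP5F1, ATP5M or ATP5P (ATP synthase, complex V). This gave 80 genes of 19122, of which 70 are widely expressed subunits, 8 are isoforms of restricted expression or copies, and 2 are readthrough genes (ATP5MF-PTCD1 and NDUFC2-KCTD14) that share an end with a subunit gene. A gene was counted as occupied when a region of a list lay within 1 kb of either of its ends.

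In CUT&Tag an antibody directs the transposase Tn5 to the chromatin around its target, and the DNA released there is sequenced. NONO, a DNA- and RNA-binding protein of nuclear paraspeckles, was mapped in NC cells (the control, with the genotype given as WT) and in NONO-KD cells. H3T11ph (histone H3 phosphorylated at threonine 11, a mark attributed to the kinase PKM2) and H3K27ac (acetylated lysine 27, found at active promoters and enhancers) were mapped in NC and PKM2-KD cells. Each group held 1 library, so no difference between groups could be tested, and what follows describes these libraries. Whether the knockdown cells of this assay received siRNA or shRNA was not given in the sources used here, and no expression values were used, so the knockdowns were not checked.

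The lists differed in form. On chromosomes 1 to 22 they held between 35720 regions (H3T11ph PKM2-KD) and 556239 regions (H3K27ac NC). Most NONO NC regions were 269 bp wide and most H3K27ac NC regions 112 bp, the least that occurred in those lists, which was not so in the other 4. In the NONO and H3K27ac pairs, the way regions were called and the knockdown therefore cannot be told apart, and only the H3T11ph pair was of 1 form. As a check of the cell line, all 6 mesenchymal marker genes, among them VIM and CD44, carried H3K27ac in both lists over 21.5% to 53.3% of their end windows. Of the 6 luminal marker genes, among them ESR1 and EPCAM, 5 carried it in each list over at most 26.3%, a value reached at GATA3 in PKM2-KD and above those of FN1 (21.6%) and ZEB1 (22.3%) there, so the marker sets overlapped.

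Oxidative phosphorylation takes electrons from NADH through complex I, ubiquinone, complex III, cytochrome c and complex IV to oxygen, and the proton gradient so formed drives ATP synthase. A few subunits are encoded by mitochondrial DNA, and all others come from nuclear genes scattered over the chromosomes, most of which are used in every cell. Several of their promoters are known to respond to the factors NRF1 and GABP, the latter of the ETS family. Alongside these stand isoforms made mainly in muscle, lung or testis, and nearly identical copies.

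Promoter sequences of 250 bases before to 50 after the start, from RefSeq (GRCh38.p14), were matched for 64 of the 80 genes. The 7 shown are those of genes that had regions in all 3 NC lists or in at least 5 of the 6 lists, or whose NONO or H3T11ph regions overlapped between NC and knockdown, and that had any region over this window. They run 5′ to 3′ along the gene, and capitals mark matches to the letters GCATGCG (NRF1), CCGGAAG (ETS family), CCAAT (NF-Y), GGGCGG (SP family), GATGGCG (YY1) and TATAAA (the TATA box) on either strand. GCATGCG and its reverse complement overlap within the NRF1 palindrome. The first 4 belong to accessory subunits of complex I and the last to complex IV: NDUFA2 (chr5:140647581-140647880, minus strand), NDUFA3 (chr19:54102605-54102904, plus strand), NDUFA11 (chr19:5903741-5904040, minus strand), NDUFV3 (chr21:42893059-42893358, plus strand) and COX8A (chr11:63974370-63974669, plus strand).
NDUFA2: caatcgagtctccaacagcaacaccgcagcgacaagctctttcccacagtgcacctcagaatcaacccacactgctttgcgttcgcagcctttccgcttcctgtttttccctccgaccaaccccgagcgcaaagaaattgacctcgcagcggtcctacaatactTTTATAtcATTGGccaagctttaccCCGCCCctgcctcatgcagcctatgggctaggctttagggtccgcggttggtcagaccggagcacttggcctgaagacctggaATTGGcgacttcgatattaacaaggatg
NDUFA3: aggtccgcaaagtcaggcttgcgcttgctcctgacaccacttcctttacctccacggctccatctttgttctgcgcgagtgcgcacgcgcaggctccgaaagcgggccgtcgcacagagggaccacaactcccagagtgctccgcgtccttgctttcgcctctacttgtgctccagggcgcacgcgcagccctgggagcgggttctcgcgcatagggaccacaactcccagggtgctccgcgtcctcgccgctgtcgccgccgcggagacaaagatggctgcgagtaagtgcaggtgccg
NDUFA11: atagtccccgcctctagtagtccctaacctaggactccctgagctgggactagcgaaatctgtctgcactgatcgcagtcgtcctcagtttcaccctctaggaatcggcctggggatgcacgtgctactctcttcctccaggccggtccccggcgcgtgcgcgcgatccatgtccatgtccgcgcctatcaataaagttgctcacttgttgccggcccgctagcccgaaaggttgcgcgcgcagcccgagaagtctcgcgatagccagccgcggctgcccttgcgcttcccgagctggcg
NDUFV3: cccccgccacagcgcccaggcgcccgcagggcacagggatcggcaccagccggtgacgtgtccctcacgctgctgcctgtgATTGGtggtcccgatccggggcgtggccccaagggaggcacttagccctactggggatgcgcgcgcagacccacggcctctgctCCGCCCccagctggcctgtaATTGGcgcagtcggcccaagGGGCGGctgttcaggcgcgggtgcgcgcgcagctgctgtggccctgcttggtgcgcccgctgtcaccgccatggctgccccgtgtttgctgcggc
COX8A: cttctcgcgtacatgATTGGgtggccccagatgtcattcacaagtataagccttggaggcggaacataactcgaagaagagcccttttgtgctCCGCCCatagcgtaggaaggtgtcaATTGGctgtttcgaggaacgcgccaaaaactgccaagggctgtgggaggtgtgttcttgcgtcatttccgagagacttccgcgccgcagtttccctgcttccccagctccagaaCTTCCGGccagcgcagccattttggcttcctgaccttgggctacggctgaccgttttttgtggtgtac

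The other two belong to core subunits of complex I, NDUFV1 (chr11:67606686-67606985, plus strand) and NDUFS7 (chr19:1383657-1383956, plus strand). NDUFS7 held the letters for NRF1, SP and YY1, while NDUFV1, NDUFA3 and NDUFA11 held none of the 6.
NDUFV1: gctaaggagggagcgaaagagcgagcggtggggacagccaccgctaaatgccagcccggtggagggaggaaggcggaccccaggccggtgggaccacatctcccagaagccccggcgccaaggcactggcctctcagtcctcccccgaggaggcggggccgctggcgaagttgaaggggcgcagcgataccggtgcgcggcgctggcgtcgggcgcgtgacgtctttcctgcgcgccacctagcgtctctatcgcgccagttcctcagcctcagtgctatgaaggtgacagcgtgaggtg
NDUFS7: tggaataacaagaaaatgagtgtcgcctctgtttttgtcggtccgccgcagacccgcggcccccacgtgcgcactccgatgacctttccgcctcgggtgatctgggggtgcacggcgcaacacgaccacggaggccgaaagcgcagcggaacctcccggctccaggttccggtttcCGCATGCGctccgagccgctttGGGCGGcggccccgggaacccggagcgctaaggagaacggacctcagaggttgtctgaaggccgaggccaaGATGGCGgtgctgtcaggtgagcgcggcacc

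Over the 64 promoters, GCATGCG was present in 11 (17.2%, against 5.06% of all 15100 promoters of the table) and CCGGAAG in 17 (26.6% against 14.4%). GATGGCG was present in 7 (10.9% against 5.78%). The remaining letters were about as frequent as elsewhere: CCAAT in 22 (34.4% against 36.0%), GGGCGG in 39 (60.9% against 58.9%) and TATAAA in 6 (9.38% against 9.71%). The median GC content was 61.0% and the median number of CpG was 23, against 63.0% and 22 over all promoters. These are matches of letters in a window and say nothing about binding.

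H3K27ac was the mark most of these genes carried. In NC, 67 of the 80 had a region (83.8%, 95% Wilson interval 74.2% to 90.3%), and 78.7% of all genes did. In PKM2-KD, again 67 had one (83.8%, same interval), while the share over all genes was 65.6%. The respiratory chain genes were thus as often marked in PKM2-KD as in NC, although the PKM2-KD list was shorter and reached fewer genes overall. When the NC list was cut to the length of the PKM2-KD list by −log10 p, its share became 60% (all genes 55.8%).

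NONO lay at far fewer of them. In NONO NC, 27 genes had a region (33.8%, 24.3% to 44.6%, all genes 28.9%), and in NONO-KD 8 did (10%, 5.15% to 18.5%, all genes 10.3%). H3T11ph lay at 14 in NC (17.5%, 10.7% to 27.3%, all genes 18.2%) and at 15 in PKM2-KD (18.8%, 11.7% to 28.7%, all genes 17.6%). For NONO and H3T11ph the share over all genes fell inside the interval of the respiratory chain genes in all 4 lists, and for H3K27ac it did so in NC and not in PKM2-KD. The intervals cover counting error only, and genes are not replicates of a condition.

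**Figure D1:**
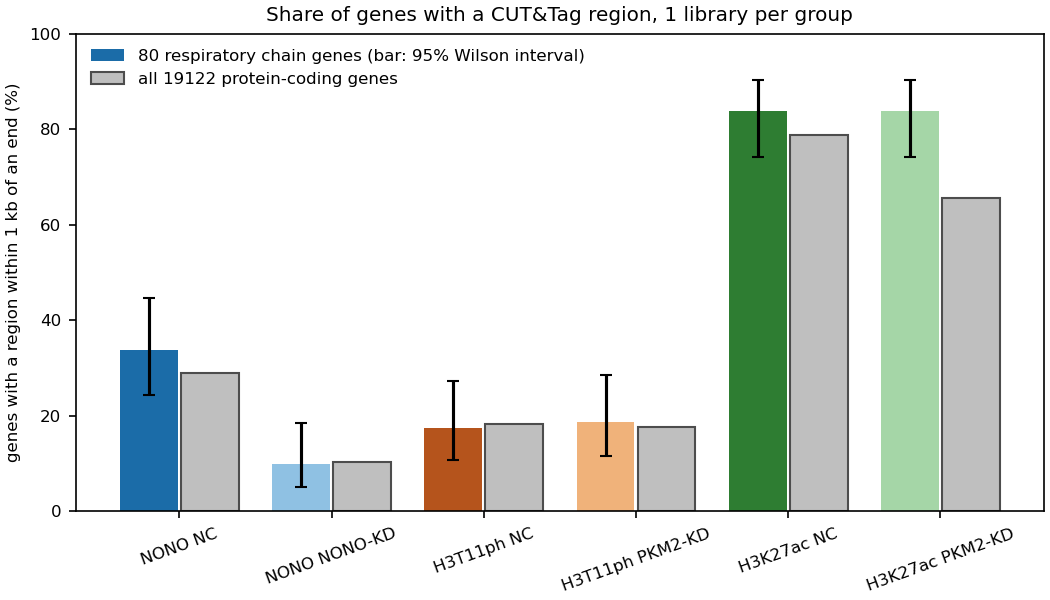
Share of genes with a region within 1 kb of either end (%, y axis) in each of the 6 libraries (x axis), for the 80 respiratory chain genes (coloured, with 95% Wilson interval) and all 19122 protein-coding genes (gray). In H3K27ac PKM2-KD the shares were 83.8% and 65.6%, and in the other lists the gray bar lies within the interval.

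The respiratory chain genes differ from other genes in size and surroundings, which bear on such counts. Their median length was 10198 bp, against 24490.5 bp over all genes. For 37 of 80 (46.2%, all genes 29.0%), an end of another protein-coding gene lay within 1 kb of an end of their own, so that a region there belonged to both. For 24 of the 64 with a known start (37.5%, all genes 20.2%), the neighbour lay at the start. The part of length and of neighbours in the shares above was not tested.

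H3K27ac lay more often at the start than at the far end. Among the 64 genes with a known strand, 46 had an H3K27ac NC region within 1 kb of the start (71.9%, all genes 67.6%) and 25 at the far end (39.1%, all genes 41.6%). In PKM2-KD the numbers were 53 (82.8%, all genes 60.3%) and 15 (23.4%, all genes 22.8%). Over the promoter window itself the difference from other genes was larger: 33 of 64 had an H3K27ac NC region there (51.6%, all promoters 40.4%) and 51 had one in PKM2-KD (79.7%, all promoters 44.8%).

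The other targets reached few of these windows. NONO lay over 8 of the 64 in NC (12.5%, all promoters 9.77%) and 4 in NONO-KD (6.25%, all promoters 2.92%). H3T11ph lay over 10 in NC (15.6%, all promoters 8.75%) and 7 in PKM2-KD (10.9%, all promoters 9.34%). Of the H3T11ph NC summits within 1 kb of a start, 10 of 12 were within 300 bp of it and 9 were upstream. In PKM2-KD 5 of 10 were within 300 bp, and 7 were upstream. The NONO NC summits were spread on both sides, with 8 of 15 upstream and 6 within 300 bp.

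**Figure D2:**
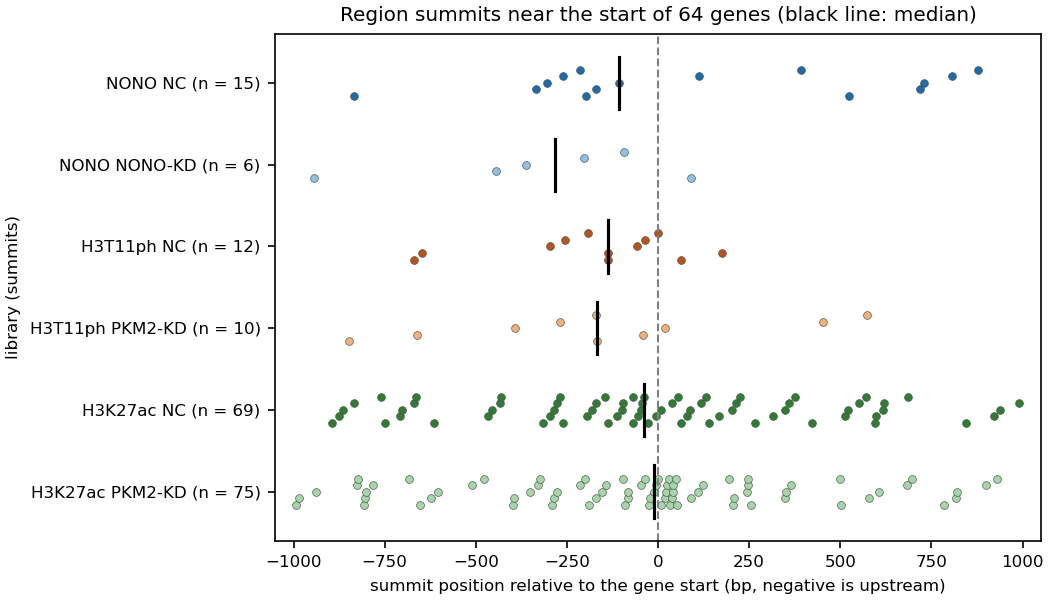
Position of each region summit relative to the gene start (bp, x axis, negative is upstream) for the 64 respiratory chain genes with a known strand, by library (y axis, number of summits in brackets), with the median as a black line. Summits of H3T11ph NC centred at -136 bp and those of H3K27ac at -39 bp in NC and -11 bp in PKM2-KD.

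H3K27ac also covered more of these genes in PKM2-KD than in NC. Regions covered a mean of 11.3% of the bases within 1 kb of the gene ends in NC (all genes 9.96%) and 17.7% in PKM2-KD (all genes 13.1%), and the medians were 8.54% and 15.8% (all genes 5.6% and 6.79%). The covered length was higher in PKM2-KD at 56 of 80 genes (70%, all genes 50.5%), lower at 18 (22.5%, all genes 35.2%) and equal at 6 (7.5%, all genes 14.2%). The regions themselves differed, with a median width of 139 bp over the 130 regions in NC and 400 bp over the 108 in PKM2-KD. The median of the highest fold per gene was 6.14 in NC and 8.67 in PKM2-KD, close to the 6.14 and 8.56 over all genes with a region. Fold here is the deposited enrichment of a summit over the background of its own library. Since the NC and PKM2-KD lists were called in different forms, the part of the calling in these differences cannot be told apart from the knockdown.

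**Figure D3:**
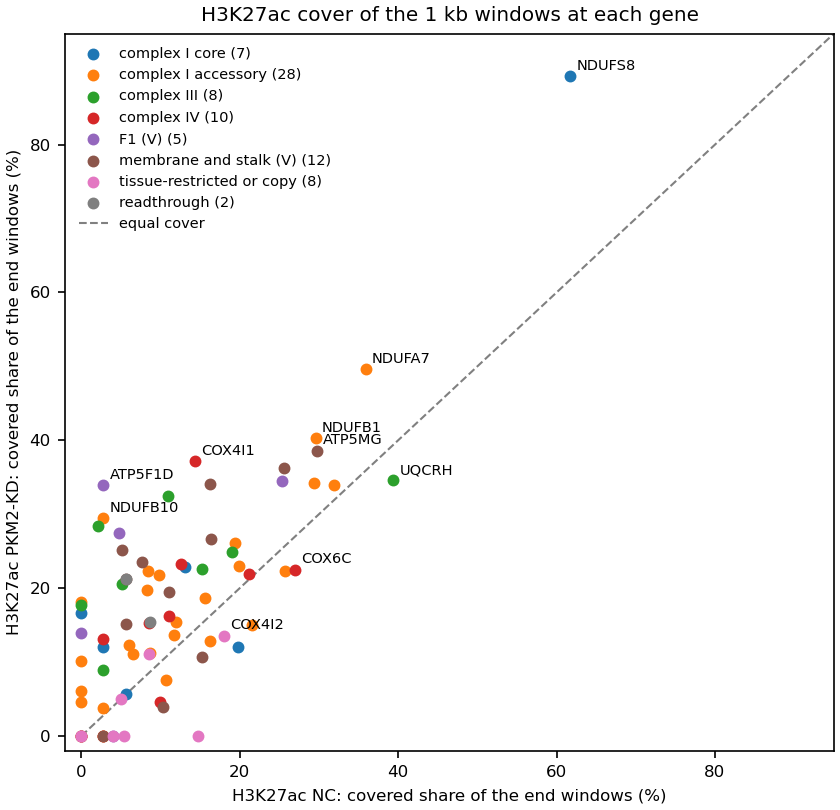
Share of the bases within 1 kb of the gene ends covered by H3K27ac regions (%) in NC (x axis) and PKM2-KD (y axis) for each of the 80 genes, coloured by complex, with the line of equal cover dashed. 56 genes lie above the line, and NDUFS8 stands apart at 61.7% and 89.3%.

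The core subunits of complex I carry the flavin, the iron-sulfur clusters and the quinone site, and 7 of them are nuclear. H3K27ac was present at 5 in NC (71.4%, all genes 78.7%) and 6 in PKM2-KD (85.7%, all genes 65.6%). NDUFS8, which binds iron-sulfur clusters near the quinone site, was the most covered of the 80 genes. In NC it had 5 H3K27ac regions covering 61.7% of its windows, and in PKM2-KD it had 2 regions of 4721 bp and 3531 bp covering 89.3%. The summit at its start lay at 9 bp into the gene in NC (fold 15.1) and 11 bp before it in PKM2-KD (fold 19.1), and at the far end the folds were 16.9 and 25.1. The ends of ALDH3B1 and TCIRG1 lie close by. H3T11ph had 2 regions past its far end in PKM2-KD (folds 24.0 and 5.61) and none in NC.

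NDUFV1, which binds NADH and FMN, had a region in all 3 NC lists, at 3 different places. The NONO region lay 729 bp into the gene (fold 19.3), the H3T11ph region 887 bp past the far end (fold 7.39) and the only H3K27ac region 669 bp upstream (112 bp, fold 3.24). In PKM2-KD it had 3 H3K27ac regions, 2 of them over the promoter window shown above (folds 3.97 and 4.56). NDUFS7, which holds the cluster that hands electrons to ubiquinone, had regions in 5 of the 6 lists and none in NONO-KD. Its NONO NC region (428 bp, fold 22.3) reached into the promoter window. Its H3T11ph region lay inside the far end in NC (fold 4.21) and 662 bp upstream of the start in PKM2-KD (fold 10.3). Within 1 kb of the ends of NDUFS7, H3K27ac was found at the far end alone, with folds of 4.25 and 4.33 in NC and 3.68 in PKM2-KD. The widest H3K27ac regions over the whole gene lay further inside, with folds of 10.9 in NC and 7.30 in PKM2-KD.

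NDUFV2, another core subunit, had 4 H3K27ac regions in NC (highest fold 7.29) and 2 in PKM2-KD (highest fold 4.39), and a NONO NC region of fold 57.6 near its far end. NDUFS3 had H3K27ac at highest folds of 6.14 in NC and 14.1 in PKM2-KD, and no NONO or H3T11ph region. NDUFS1, the largest core subunit, was marked at its ends only in PKM2-KD (2 regions, highest fold 3.61).

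Accessory subunits surround the core of complex I and support its assembly. Of the 28, H3K27ac lay at 22 in NC (78.6%, all genes 78.7%) and 25 in PKM2-KD (89.3%, all genes 65.6%). NONO lay at 10 in NC (35.7%, all genes 28.9%) and 6 in NONO-KD (21.4%, all genes 10.3%). H3T11ph lay at 6 in each list (21.4%, all genes 18.2% in NC and 17.6% in PKM2-KD). NDUFA11, a membrane subunit, was the only gene of the 80 with a region in all 6 lists. It had 4 NONO NC regions with folds of 30.2, 43.5, 3.92 and 10.5, and 2 in NONO-KD with folds of 8.82 and 3.86. H3T11ph had 1 region in NC (fold 10.1) and 3 in PKM2-KD (folds 3.03, 10.3 and 3.28). H3K27ac had 2 regions in NC (highest fold 4.54) and 1 of 750 bp over the start in PKM2-KD, with a fold of 2.21. The end of VMAC lies next to its start, and NONO and H3T11ph regions of NC and knockdown overlapped upstream of it.

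NDUFA3, a small membrane subunit, had H3T11ph regions on its promoter in both lists, 111 bp and 110 bp wide with a shared stretch of 39 bp. The fold was 19.6 in NC and 31.6 in PKM2-KD, with 27 and 42 fragments at the summit, 136 bp and 41 bp upstream of the start. A NONO-KD region lay on the same promoter with a fold of 3.67, from 4 fragments, and NONO NC had none. H3K27ac was found over this promoter in PKM2-KD (fold 4.55), and in NC only inside the gene and past the far end (folds 3.44 and 3.63).

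NDUFA2 had an H3T11ph NC region on its promoter with a fold of 23.7 and 145 fragments at the summit, 36 bp upstream of the start and beside TMCO6 and IK, and no H3T11ph region in PKM2-KD. H3K27ac lay over the same promoter in both lists with folds of 3.98 and 3.45. The NONO NC region of NDUFA2 (fold 6.49) was at the other end of the gene. At NDUFV3 the H3T11ph NC regions had folds of 25.2 and 3.49, the NONO NC region a fold of 42.6, and the H3K27ac regions spanned 1177 bp in NC (fold 10.1) and 1370 bp in PKM2-KD (fold 21.2). NDUFV3 lies beside WDR4, and it had no H3T11ph region in PKM2-KD and no NONO region in NONO-KD.

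At gene ends, the highest H3K27ac folds of accessory subunits in PKM2-KD were at NDUFA7 (26.7, against 5.71 in NC), NDUFB4 (24.7 against 4.83) and NDUFB5 (22.5 against 14.6). In NC they were at NDUFA12 and NDUFS4 (17.8 at each, against 5.09 and 8.67 in PKM2-KD) and at NDUFC2 (17.0 against 10.5). The order of genes by fold therefore differed between the lists. NDUFAB1, the mitochondrial acyl carrier protein, NDUFA9, NDUFB6 and NDUFB8 had H3K27ac at their ends in PKM2-KD only, with folds of 11.3, 3.62, 4.68 and 3.25. NDUFA10 was marked at its ends in NC only, by a single region of 112 bp (fold 3.24). NDUFA5 and NDUFB7 were marked at their ends in neither list. Over the whole gene and 1 kb on both sides, NDUFA10 had 31 H3K27ac regions in NC and 10 in PKM2-KD. NDUFA5 had 8 and 3 by that count, and NDUFB7 had 0 and 1.

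Complex III passes electrons from ubiquinol to cytochrome c. Of its 8 subunits here, 7 had H3K27ac in NC (87.5%, all genes 78.7%) and all 8 in PKM2-KD (all genes 65.6%). Between 8.95% and 34.6% of the windows was covered in PKM2-KD. UQCRH, the hinge protein that contacts cytochrome c, had, among regions within 1 kb of gene ends, the highest H3K27ac fold of the 80 genes in NC (26.0, a region of 2642 bp) and 18.1 in PKM2-KD (2523 bp), at its start beside LRRC41. UQCR11 was marked at its ends in PKM2-KD only (2 regions, highest fold 6.52). It had NONO NC regions of folds 38.6 and 9.55 and an H3T11ph NC region of fold 13.8, and neither target in the knockdown lists. UQCRC1, a core protein of the complex, had a NONO NC region of fold 25.2, and UQCRC2, the other core protein, an H3T11ph NC region of fold 14.6. None of the 8 genes had a NONO region in NONO-KD (all genes 10.3%) or an H3T11ph region in PKM2-KD (all genes 17.6%), a count too small to set apart from those shares.

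Complex IV reduces oxygen. Of its 10 widely expressed subunits, 9 had H3K27ac in NC (all genes 78.7%) and 8 in PKM2-KD (all genes 65.6%). COX5A and COX5B, which bind the catalytic core, had NONO NC folds of 177 and 103, among the 5 highest of the 80 genes, and neither had a NONO region in NONO-KD. The summit at COX5A lay 112 bp into the gene, and an H3T11ph PKM2-KD region lay 268 bp upstream of the same start (fold 45.8). COX8A, a small membrane subunit, was 1 of 3 genes with NONO in both lists, the others being NDUFA11 and NDUFA13. Upstream of COX8A the NONO region was 618 bp wide in NC (fold 19.9, 162 fragments) and 172 bp in NONO-KD (fold 40.1, 156 fragments), and the second lay within the first. At NDUFA13, a subunit also studied as GRIM-19, the NONO regions (folds 22.6 and 42.2) lay at the same end and did not overlap.

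ATP synthase has a catalytic F1 head, in which ATP5F1A and ATP5F1B form the hexamer and ATP5F1C, ATP5F1D and ATP5F1E the central stalk. At their ends, ATP5F1A had H3K27ac in PKM2-KD only (fold 12.3) and ATP5F1B in NC only (2 regions, highest fold 5.87). The 3 stalk subunits were marked in both lists, over 2.8% to 25.4% of their windows in NC and 27.5% to 34.5% in PKM2-KD. ATP5F1D had 3 NONO NC regions, the strongest of fold 129, and none in NONO-KD. ATP5F1E had a NONO NC region of fold 20.5 and an H3T11ph PKM2-KD region of fold 11. ATP5F1C had an H3T11ph NC region of fold 5.05, and at ATP5F1B an H3T11ph PKM2-KD region had a fold of 1.73, the lowest at any of these genes.

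The membrane part of ATP synthase carries protons through its ring, and the outer stalk holds the head in place. H3K27ac lay at all 12 of these subunits in NC (all genes 78.7%) and 11 in PKM2-KD (91.7%, all genes 65.6%), with a median cover of 10.7% and 22.5%. ATP5PO, the OSCP subunit that joins the stalk to F1, had the highest H3K27ac fold within 1 kb of gene ends in PKM2-KD (34.2, against 11.4 in NC), although its region was narrower there (428 bp against 608 bp). ATP5MK had H3T11ph in both lists, in regions that did not overlap, 136 bp upstream of the start in NC (fold 21.5) and 453 bp inside in PKM2-KD (fold 43.5). ATP5MC2, which makes the ring protein c, was marked with H3K27ac at its ends in NC only (112 bp, fold 5.42).

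**Figure D4:**
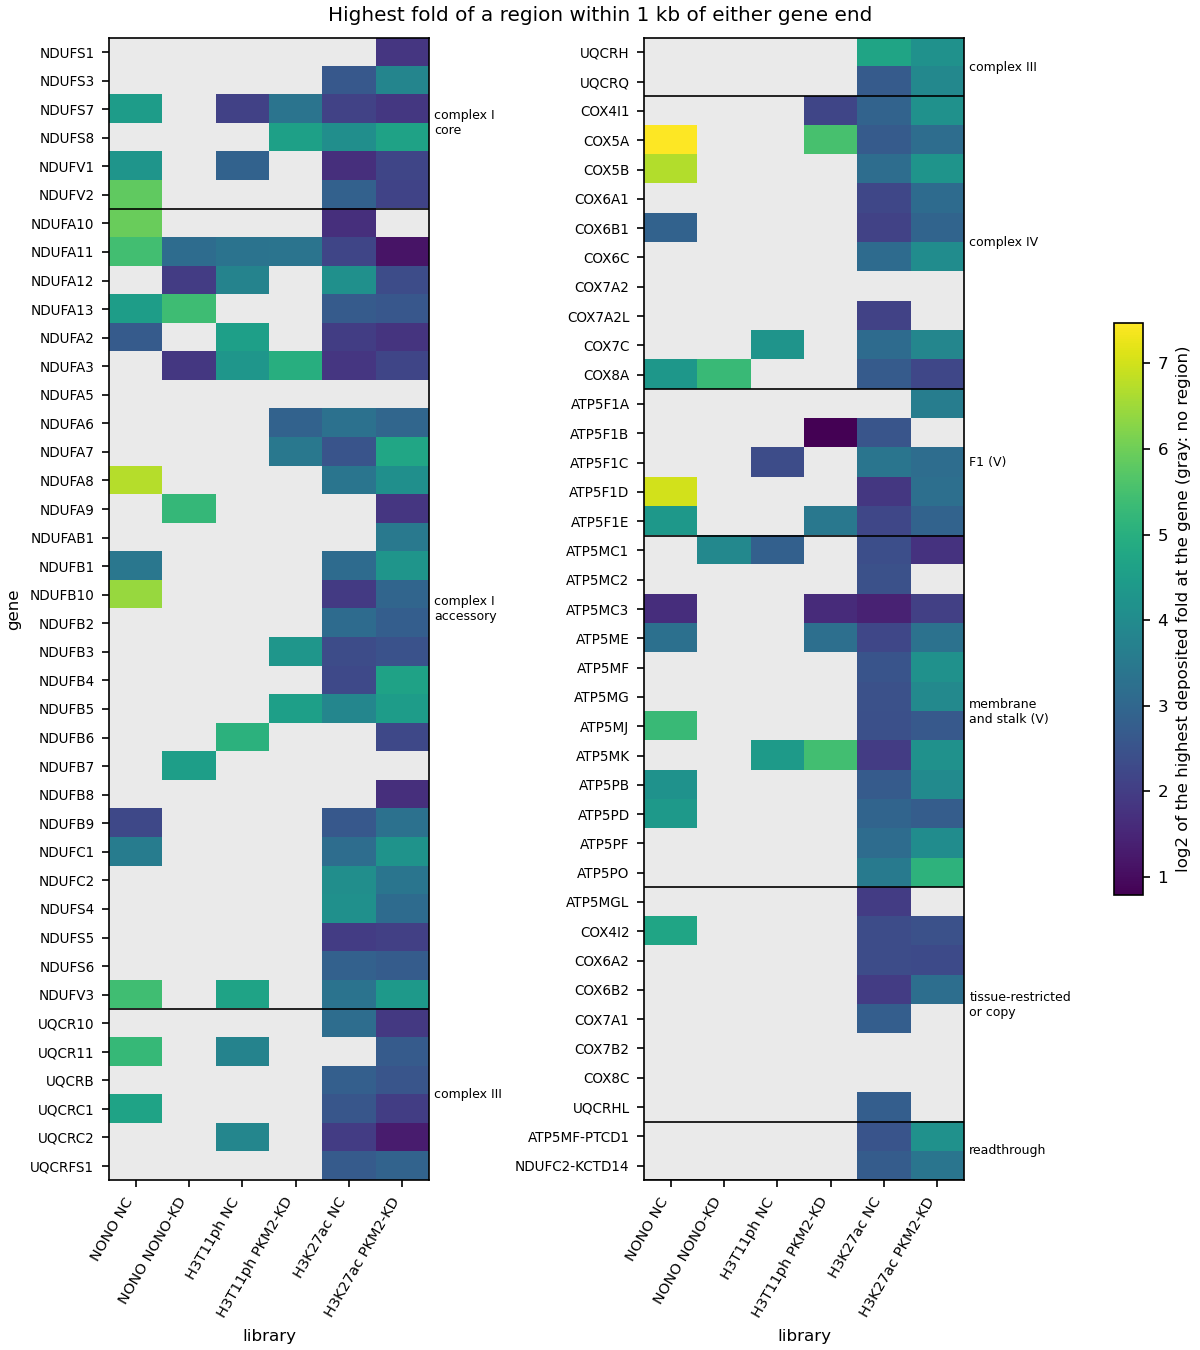
Log2 of the highest deposited fold of a region within 1 kb of either end (colour) for 79 of the 80 genes (y axis, grouped by complex) in each library (x axis), with gray for no region. The H3K27ac columns are filled for 67 genes each, and the NONO and H3T11ph columns for 27, 8, 14 and 15.

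Of the isoforms of restricted expression and the copies, H3K27ac lay at 6 of 8 genes in NC (75.0%, all genes 78.7%) and 3 in PKM2-KD (37.5%, all genes 65.6%). It lay at 59 and 62 of the 70 widely expressed subunits (84.3% and 88.6%). The 8 genes are too few to set apart from the shares over all genes. COX4I2, the lung isoform of COX4, had regions in both lists over 18.0% and 13.6% of its windows (highest folds 5.05 and 5.42), and had a NONO NC region of fold 26.2. COX6A2, a heart and muscle isoform, and COX6B2, a testis isoform, were marked in both lists over between 5.0% and 11.1% of their windows. COX7A1, a heart and muscle isoform, and the copies UQCRHL and ATP5MGL were marked in NC only, by regions of at most 224 bp with folds of 6.87, 6.87 and 3.96. COX7B2 and COX8C, both testis isoforms, had no region at their ends in any list. UQCRHL is nearly identical to UQCRH, and how reads matching both were placed was not given in the sources used here. Over these 8 genes, NONO lay at 1 in NC (all genes 28.9%). H3T11ph lay at none in either list (all genes 18.2% in NC and 17.6% in PKM2-KD).

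Between NC and knockdown, H3K27ac was found in both lists at 60 genes (all genes 58.3%), in NC only at 7 (all genes 20.4%), in PKM2-KD only at 7 (all genes 7.25%) and in neither at 6 (all genes 14.1%). As shares of the 80 genes these were 75.0%, 8.75%, 8.75% and 7.5%. At 49 of the 60 genes marked in both, regions of the lists overlapped by at least 1 bp. The 11 others, among them NDUFS7, NDUFV1, NDUFA3 and COX8A, were marked at separate places. Here and below, overlaps of regions were counted at the 80 genes only. They were not compared with all genes and cannot be called particular to these. Of the 7 genes marked in NC only, 3 were isoforms or copies and the others COX7A2L, NDUFA10, ATP5MC2 and ATP5F1B. For COX7A2L and ATP5MC2 this held at the outermost ends alone. The starts of their promoters lie 7740 bp and 5340 bp inside. Over the promoter windows there, both had an H3K27ac region in PKM2-KD and none in NC. At ATP5MC2, however, an NC region of 143 bp (fold 4.65) lay just outside that window and within the PKM2-KD region. The 7 marked in PKM2-KD only were all widely expressed subunits.

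Some genes without a mark at their outermost ends in 1 or both lists carried it further inside. COX7A2L, which joins complexes III and IV and had a 112 bp NC region near an end (fold 4.33), also had a region of 1632 bp in NC (fold 42.4) and 2095 bp in PKM2-KD (fold 60.7) more than 6 kb from either end. COX7A2 had one of 901 bp in NC (fold 15.6) and 971 bp in PKM2-KD (fold 26.0), 5560 bp and 5517 bp from the nearest end. ATP5MC2 had a PKM2-KD region of 636 bp (fold 4.18) over the promoter given in the table, which lies 5340 bp inside the outermost end. Counted over the whole gene and 1 kb on both sides, a choice made after seeing the data, 78 genes had H3K27ac in NC and 75 in PKM2-KD, which is 97.5% and 93.8% (all genes 93.6% and 85.3%). COX8C had no H3K27ac region in either list even so.

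NONO was found in both lists at 3 genes (all genes 4.28%), in NC only at 24 (all genes 24.6%), in NONO-KD only at 5 (all genes 6.0%) and in neither at 48 (all genes 65.1%). In shares of the 80 genes these were 3.75%, 30%, 6.25% and 60%, close to the shares over all genes. The 5 with NONO in NONO-KD only were NDUFA9, NDUFA12, NDUFB7, NDUFA3 and ATP5MC1, with folds of 37.7, 3.91, 23.3, 3.67 and 14.9. NONO NC folds ranged from 3.16 at ATP5MC3 to 177 at COX5A, and after COX5A and ATP5F1D came NDUFA8 (106), COX5B (103) and NDUFB10 (87.2). None of these 5 had a NONO region in NONO-KD. Of the 35 NONO NC regions at the 80 genes, 29 had the narrowest width of 269 bp, and 2 overlapped a NONO-KD region.

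H3T11ph, the pair of 1 form, was found in both lists at 4 genes (all genes 6.14%), in NC only at 10 (all genes 12.0%), in PKM2-KD only at 11 (all genes 11.5%) and in neither at 55 (all genes 70.3%). As shares of the 80 genes these were 5.0%, 12.5%, 13.8% and 68.8%. The genes with H3T11ph in both were ATP5MK, NDUFS7, NDUFA11 and NDUFA3, and only at NDUFA11 and NDUFA3 did regions of NC and PKM2-KD overlap. The highest folds in NC were at NDUFB6 (34.1), NDUFV3 (25.2), NDUFA2 (23.7), ATP5MK (21.5) and NDUFA3 (19.6). In PKM2-KD they were at COX5A (45.8), ATP5MK (43.5), NDUFA3 (31.6), NDUFS8 (24.0) and NDUFB5 (23.4). Of these, NDUFB6, NDUFV3 and NDUFA2 had no region in PKM2-KD, and COX5A, NDUFS8 and NDUFB5 none in NC.

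In NC cells the 3 targets were set side by side. NONO and H3T11ph lay at the same 6 genes (all genes 7.68%), NONO and H3K27ac at 26 (all genes 24.2%), H3T11ph and H3K27ac at 12 (all genes 15.9%) and all 3 at 5 (all genes 6.78%). In shares of the 80 genes these were 7.5%, 32.5%, 15.0% and 6.25%. The 5 genes with all 3 were NDUFA2, NDUFV1, NDUFS7, NDUFA11 and NDUFV3, all of complex I, which supplies 35 of the 80 genes. With windows of 500 bp, a −log10 q of at least 5, wide regions or lists of equal length, 1 gene had all 3. With windows of 500 bp the share over all genes fell as well, to 3.67%. The drop is therefore not by itself a result about these genes. Sharing a gene did not always mean sharing a place, and how often it does over all genes was not counted. Of the 35 NONO NC regions, 1 overlapped an H3T11ph NC region and 9 an H3K27ac NC region. Of the 15 H3T11ph NC regions, 6 overlapped an H3K27ac NC region and 11 an H3K27ac PKM2-KD region.

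Other genes of the pathway also carried H3K27ac at most members. Of 63 genes for complex II and cytochrome c, assembly factors and regulators, 59 had H3K27ac in NC (93.7%, all genes 78.7%) and 57 in PKM2-KD (90.5%, all genes 65.6%). NONO lay at 20 in NC (31.7%, all genes 28.9%) and 9 in NONO-KD (14.3%, all genes 10.3%). H3T11ph lay at 15 in NC (23.8%, all genes 18.2%) and 20 in PKM2-KD (31.7%, all genes 17.6%). Among the 6 genes of complex II and cytochrome c, H3T11ph lay at 4 in NC, among them SDHB (fold 39.4) and SDHC (fold 14.6), and at 2 in PKM2-KD. Among the 45 assembly factors it lay at 8 in NC (17.8%) and 15 in PKM2-KD (33.3%), to be read against the same shares over all genes. Of the 12 regulators, GABPB1, a subunit of GABP, had the highest H3K27ac folds (27.6 and 65.1). PPARGC1A, the coactivator PGC-1 alpha, had H3K27ac at its ends in NC only (fold 3.76).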

How the data were processed

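CUT&Tag with antibodies to NONO, H3T11ph and H3K27ac gave 6 libraries, 1 per group. The authors deposited 1 narrowPeak list per library on hg38, and the submitters' processing notes name FastQC 0.11.9, cutadapt 1.18, SAMtools 1.3.1, MACS2 2.1.1.20160309 and DESeq2. The aligner, duplicate handling, control and peak calling settings were not given in the sources used here. Each row of the deposited lists holds a score, a fold (the ratio of the summit over its background), a −log10 p-value, a −log10 q-value and a summit position.

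Gene ends, names and promoters came from RefSeq (GRCh38.p14), whose table gave 19122 protein-coding genes on chromosomes 1 to 22. Windows of 1 kb on both sides of either end were searched for regions, overlap meant at least 1 bp, and shares carry 95% Wilson intervals (Python 3.11.15, scipy 1.17.1). Fragments at a summit were recovered from the deposited fold and −log10 p, and were whole for 100% of 500 rows tried per list (tolerance 0.01, or 0.1 in H3K27ac NC after scaling by 0.521). In H3K27ac NC that scale was chosen on some of the same rows so that values came out whole. The 100% there is therefore no check of its fragment counts. Read totals were not used here, so depth is unknown. The counting was tested on simulated data. Members and gene lists were chosen with earlier results of these data known.

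Genes were named if they lacked H3K27ac in a list, had regions in all 3 NC lists or at least 5 of 6 lists, were among the 5 highest folds of a library, belonged to the core of complex I, F1 or the isoforms and copies, or had NONO or H3T11ph regions that overlapped between NC and knockdown. Others were named as examples after their values were seen. A gene that meets this rule is not reported here by name. No test was run, since each group had 1 library. Alternatives changed the window, the q-value, region width, list length, summit, gene start and members.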

Additional observations from a re-analysis of the deposited data

How the results depend on the processing

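Over 10 alternatives, 117 values stayed close to those reported and 83 moved. Most counts below are given without the share over all genes, which also changed with the setting. For example, H3K27ac in PKM2-KD alone lay at 7.25% of all genes as reported and at 10.3% with windows of 500 bp. A count that moves is therefore not by itself a result about the respiratory chain genes. The order of NC and knockdown was not stable where counts were close. H3T11ph, reported at 14 (NC) and 15 (PKM2-KD) genes, lay at 14 and 12 with a −log10 q of at least 5 and at 11 and 8 at the gene start alone, and its genes in NC alone against PKM2-KD alone went from 10 and 11 to 10 and 8 and to 8 and 5. H3K27ac, at 67 in each, lay at 56 and 62 with windows of 500 bp and at 75 and 72 with 2.5 kb. With windows of 500 bp, the shares with a region were 21.2% (NONO NC) and 70% (H3K27ac NC), NONO in NC alone fell to 15 genes, H3T11ph in both to 2, and H3K27ac in PKM2-KD alone rose to 13. Co-occupied genes were then 1 for NONO with H3T11ph, 14 for NONO with H3K27ac and 1 for all 3. With windows of 2.5 kb, the shares were 52.5% (NONO NC), 20% (NONO-KD), 30% (H3T11ph PKM2-KD) and 93.8% (H3K27ac NC), NONO in both was 9, H3T11ph in PKM2-KD alone 17 and in both 7, and H3K27ac in PKM2-KD alone 3. Co-occupied genes were 11, 40 and 10 for the same sets, and mean cover was 0.544% for H3T11ph PKM2-KD, 7.19% for H3K27ac NC and 10.3% after PKM2-KD.

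With a −log10 q of at least 5, H3K27ac lay at 52.5% in NC and 70% in PKM2-KD (all genes 48.9% and 56.1%), at 4 genes in NC alone, 18 in PKM2-KD alone and 38 in both, and covered 7.1% in NC. NONO in NONO-KD alone was 3, and co-occupied genes were 13 (NONO with H3K27ac), 4 (H3T11ph with H3K27ac) and 1 (all 3). With only regions of at least 2 times the narrowest width, the shares were 3.75% (NONO NC, NONO-KD and H3T11ph PKM2-KD), 5.0% (H3T11ph NC) and 51.2% (H3K27ac NC). NONO then lay at 2 genes in NC alone, 2 in NONO-KD alone and 1 in both, and H3T11ph at 3, 2 and 1. H3K27ac lay at 24 in PKM2-KD alone and 36 in both. Co-occupied genes were 1 (NONO with H3T11ph), 1 (NONO with H3K27ac), 3 (H3T11ph with H3K27ac) and 1 (all 3).

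With lists cut to equal length by −log10 p within each pair, NONO NC lay at 20% and H3K27ac NC at 60% (all genes 55.8%), against 83.8% in H3K27ac PKM2-KD. NONO in NC alone was 14, H3K27ac was 4 in NC alone and 23 in PKM2-KD alone, co-occupied genes were 9 (NONO with H3K27ac), 5 (H3T11ph with H3K27ac) and 1 (all 3), and the median NONO NC fold was 43.1. At the gene start alone (64 genes), the shares were 23.4% (NONO NC) and 71.9% (H3K27ac NC), with NONO at 13 in NC alone and 3 in NONO-KD alone, H3T11ph in PKM2-KD alone at 5, and H3K27ac in NC alone at 2. Co-occupied genes were 3 (NONO with H3T11ph), 12 (NONO with H3K27ac) and 2 (all 3). Without readthrough genes, isoforms and copies, H3K27ac in NC alone was 4.

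Another pair of alternatives was chosen after seeing the data. Over the whole gene and 1 kb on both sides, the shares were 55.0% in NC and 28.7% in NONO-KD for NONO, 36.2% in NC and 33.8% after PKM2-KD for H3T11ph, and 97.5% and 93.8% for H3K27ac, all above those at the ends. NONO in NONO-KD alone was 8 and in both 15, H3T11ph in both 15, and H3K27ac 4 in NC alone and 1 in PKM2-KD alone. Over the promoter window of the reference table and 1 kb on both sides (64 genes), NONO was 14 in NC alone and 3 in NONO-KD alone, H3T11ph 6 in PKM2-KD alone and H3K27ac 2 in NC alone. Fewer genes enter the promoter and start counts by construction, and the cause of the other moves was not tested.

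No paired analysis was possible because there was 1 library in each group, and for the same reason no replicate was left out. Depth is unknown, and regions of few fragments, such as the 30 of 130 H3K27ac NC regions with under 10 at the summit, are the least certain.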

Other observations

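Subunits outside the rule gave the following values. Of the 3 subunits on chromosome X, NDUFA1 had H3K27ac at highest folds of 6.14 in NC and 10.8 in PKM2-KD and an H3T11ph PKM2-KD region of fold 36.6. NDUFB11 had H3K27ac at 5.05 and 23.3 and an H3T11ph NC region of fold 12.4. COX7B had H3K27ac at 7.96 and 9.76, an H3T11ph NC region of fold 22.6 and a NONO NC region of fold 13.2. The complex IV subunit long known as NDUFA4 is listed in the gene table as COXFA4, and had H3K27ac at 21.0 in NC and 34.2 in PKM2-KD and an H3T11ph PKM2-KD region of fold 35.1. Its paralogue COXFA4L2 had 3 H3K27ac regions in NC, the highest of fold 5.05, none in PKM2-KD, and a NONO NC region of fold 7.90.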
